A study of Homo sapiens with 48 samples.

Results

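The comparison described here is the response of human fibroblasts to oncogenic RAS while the splicing factor RBM39 was depleted. IMR90 ER:RAS cells are lung fibroblasts that carry, from the retroviral vector pLNC, mutant RAS fused to part of the oestrogen receptor, so that 4-hydroxytamoxifen (4OHT) switches RAS on and the solvent DMSO leaves it off. Libraries were chosen by sample title, and 16 of the 48 of the series belong to the comparison: 8 from cells given 4OHT and an siRNA against RBM39 (4OHT siRBM39) and 8 from cells given DMSO and the same siRNAs (DMSO siRBM39). In each of these groups 4 libraries received siRBM39-06 and 4 received siRBM39-08. The same contrast in 16 libraries with non-targeting siRNA (8 of 4OHT siNT and 8 of DMSO siNT, from siNT1 and siNT2) is set beside it, and the 2 contrasts share no library. All groups carry ER:RAS, had 6 days of 4OHT or DMSO, were then transfected with siRNA and were collected 2 days later in medium with 0.5% serum. Cells without ER:RAS were not analysed here, so an effect of 4OHT itself and an effect of RAS cannot be told apart. The labels do not say that replicates came from separate cultures, and p-values then measure only the spread between these libraries, which may be technical.

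RAS passes its signal through RAF, MEK and ERK kinases to transcription factors such as AP-1. In normal fibroblasts a lasting RAS signal leads to oncogene-induced senescence, in which cells stop dividing and secrete interleukins, chemokines and proteases, a programme in which IL-1 and the factor NF-kB take part. RBM39 is an RNA-binding protein related to the splicing factor U2AF2, acts in the choice of splice sites, and is also known as a co-activator of AP-1 and of oestrogen receptors.

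Each siRBM39 library held between 34283723 and 48566557 counts over genes. Levels are given as CPM, the counts of a gene scaled to a common library size with TMM normalisation. The fourth 4OHT siRBM39-08 library stood apart: its median correlation with the other 4OHT siRBM39 libraries was 0.917, against 0.9904 to 0.9948 for the others. Epithelial markers summed to 92.1 CPM in it, with KRT8 at 53.3 CPM, against sums of 9.69 to 16.1 CPM in the other 7 and 23.2 to 47.6 CPM in DMSO siRBM39, while the lung epithelial marker SFTPC stayed at or near 0 throughout. Their part in the results was not tested, and values without this library are given where it changes a call. All 13 fibroblast markers were detected, and the leukocyte markers PTPRC and CD3E were at or near 0. CD68 of the leukocyte list ran from 33.1 to 44.6 CPM in DMSO siRBM39 and from 80 to 114 CPM in 4OHT siRBM39. TEK of the endothelial list ran from 30.1 to 37 CPM and from 29.4 to 48.1 CPM. The summed fibroblast markers ran from 53200 to 78400 CPM (median 67000) in DMSO siRBM39 and from 21500 to 26300 CPM (median 22500) in 4OHT siRBM39. Fewer cells of a type and less RNA per cell cannot be told apart in such bulk libraries.

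RBM39 (chromosome 20, 34289269 to 34330234 in GRCh37, minus strand) was measured at 24.2, 27.4 and 31 CPM (lowest, median and highest of 8) in DMSO siRBM39 and at 13.7, 16.6 and 18.4 CPM in 4OHT siRBM39. The target was thus low in all 16 libraries, lower with 4OHT than without, and the 2 groups did not overlap. Median levels with siRBM39 were 15.9% of those with siNT in DMSO and 13.8% in 4OHT. The transcript fell by 0.75 on the log2 scale with 4OHT (SE 0.05, adjusted p = 2.34e-18 by edgeR's quasi-likelihood test), and it fell with 4OHT in siNT too, from a median of 172 to 120 CPM. The difference in response, -0.25, had an adjusted p of 0.0102, and was past the threshold neither without replicate 2 nor without replicate 3.

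With RBM39 depleted, 4OHT raised 3909 genes, 39.1% of the 9991 tested, and lowered 3632, 36.4%, at an adjusted p under 0.05 in edgeR's quasi-likelihood test. A change of at least 2-fold was seen in 711 genes that rose (7.12%) and 945 that fell (9.46%). The median log2 fold change over all genes was 0.03, and the 8 and 8 libraries of 3601 called genes (36%) did not overlap. In siNT 39% rose and 39.1% fell, with 760 and 1089 genes past 2-fold. The 2 lists of genes changed at least 2-fold shared 1487 genes in the same direction, 89.8% of the siRBM39 list and 80.4% of the siNT list, and 0 in opposite directions. Across genes the log2 fold changes of the 2 contrasts correlated with Pearson's r = 0.98, as a description over genes that are not independent replicates. Among genes changed at least 2-fold in siNT, the median ratio of the siRBM39 to the siNT log2 fold change was 0.887. The siNT change both chose these genes and was the divisor, which tends to lower such a ratio, and the reverse choice was not made.

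**Figure D1:**
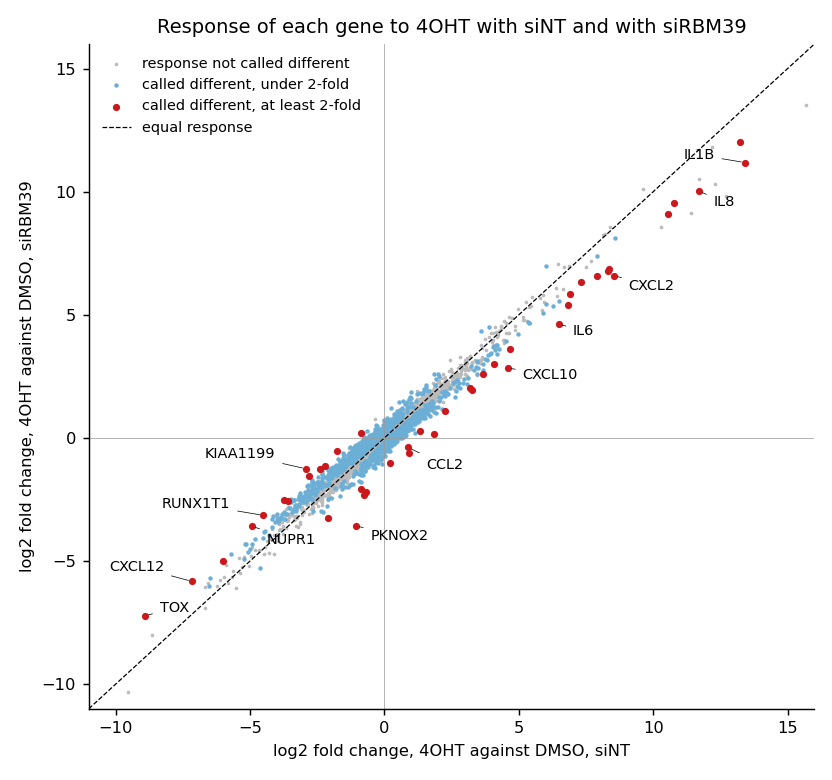
Each point is one of the genes tested, with its log2 fold change for 4OHT against DMSO in siNT (horizontal axis) and in siRBM39 (vertical axis), the dashed line marking an equal response. Most points lie along the line, and the red points are the 43 genes whose 2 responses differed by at least 2-fold, of which 13 lie above the line and 30 below it.

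Genes for growth factors, chemokines and protease inhibitors were among the 15 that rose most with RBM39 depleted. Those that rose and fell most were taken only from called genes whose 2 groups did not overlap. CSF3, which encodes the growth factor for neutrophils, was at 0 to 0.0221 CPM in DMSO siRBM39 and at 94.3, 102 and 135 CPM in 4OHT siRBM39. Only 2 counts were seen over the DMSO group, so the ratio of the groups was 17600 with a 95% exact Poisson interval of 4870 to 145000 for counting error alone. CSF2, the related factor for granulocytes and macrophages, had 3 counts in DMSO and 33.9 to 52.1 CPM with 4OHT, a ratio of 4690 (1600 to 22700). CXCL5, a chemokine that draws neutrophils, went from 0.287, 0.481 and 0.823 CPM to 1000, 2180 and 2450 CPM, a log2 fold change of 12 (SE 0.20, adjusted p = 9.52e-43, edgeR's quasi-likelihood test). Its lowest 4OHT value belonged to the library that stood apart. The other genes among the 15 that rose most were IL1B, IL8, CCL20, CXCL1, CXCL3, CXCL6, the protease inhibitors SERPINA9, PI3, CST1 and CST4, the apoptosis inhibitor BCL2A1 and the myeloid receptor TREM1, with log2 fold changes of at least 8.28. All 15 had an adjusted p under 0.05 in siNT too.

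IL1B, the inflammatory interleukin-1 beta (chromosome 2, 113587328 to 113594393 in GRCh37, minus strand), was at 0.49, 0.7 and 1.13 CPM in DMSO siRBM39 and at 1480, 1620 and 2370 CPM in 4OHT siRBM39. All 8 libraries with 4OHT lay above all 8 with DMSO, which the choice of genes required. They lay below all 8 of 4OHT siNT, which ran from 2890 to 3490 CPM. The log2 fold change was 11.19 in siRBM39 (SE 0.20) and 13.41 in siNT (SE 0.22), and the response was smaller with RBM39 depleted by 2.23 (SE 0.29, adjusted p = 1.36e-07, edgeR's quasi-likelihood test). Part of this difference lay in DMSO, where the groups met and the siRBM39 median was 237% of the siNT median, and part in 4OHT, where it was 51.2%. The 2 siRNAs gave separate levels in 4OHT, 1480 to 1530 CPM with siRBM39-06 and 1710 to 2370 CPM with siRBM39-08, both below siNT.

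IL8, whose product CXCL8 attracts neutrophils (chromosome 4, 74606236 to 74609433 in GRCh37, plus strand), rose from 0.886, 1.31 and 1.96 CPM to 881, 1250 and 2080 CPM, a log2 fold change of 10.02 (SE 0.21). In siNT the same contrast reached 2510, 3180 and 3710 CPM, so the 4OHT groups did not overlap, and the response was smaller with siRBM39 by 1.68 (SE 0.25, adjusted p = 2.4e-06, edgeR's quasi-likelihood test). IL6, an interleukin of acute inflammation (chromosome 7, 22765503 to 22771621, plus strand), rose from 0.797, 1.21 and 1.65 CPM to 20, 24.8 and 44.9 CPM. With siNT it reached 102, 115 and 140 CPM from a like start, and the siRBM39 median in 4OHT was 21.5% of the siNT median. The difference in response of IL6 was -1.86 (SE 0.25, adjusted p = 4.08e-07), and in the fits with 1 siRNA against RBM39 it was -2.09 with siRBM39-06 and -1.72 with siRBM39-08.

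CXCL10, a chemokine for T cells that interferon and NF-kB induce, rose from 1.83, 2.6 and 3.28 CPM to 14.8, 17.3 and 23.6 CPM. In siNT it rose from 0.936, 1.23 and 1.91 CPM to 28.6, 30.9 and 34.4 CPM, and the response was smaller with siRBM39 by 1.76 (SE 0.18, adjusted p = 3.28e-10, edgeR's quasi-likelihood test). The siRBM39 group was thus mostly higher than siNT before 4OHT and wholly lower after it. CCL2, which recruits monocytes, turned its direction between the contrasts. It was at 13.7, 16.4 and 20.2 CPM in DMSO siRBM39 and at 9.74, 12.6 and 16.2 CPM in 4OHT siRBM39, a fall of 0.38 on the log2 scale (adjusted p = 0.000194) with overlapping groups, which with siRBM39-08 alone was a log2 change of -0.03 and not called. In siNT it rose by 0.88 on the log2 scale, from 13.9, 14.9 and 15.6 CPM to 24.9, 26.6 and 31.1 CPM (adjusted p = 3.41e-12). The difference, -1.26, had an adjusted p of 3.28e-10.

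**Figure D2:**
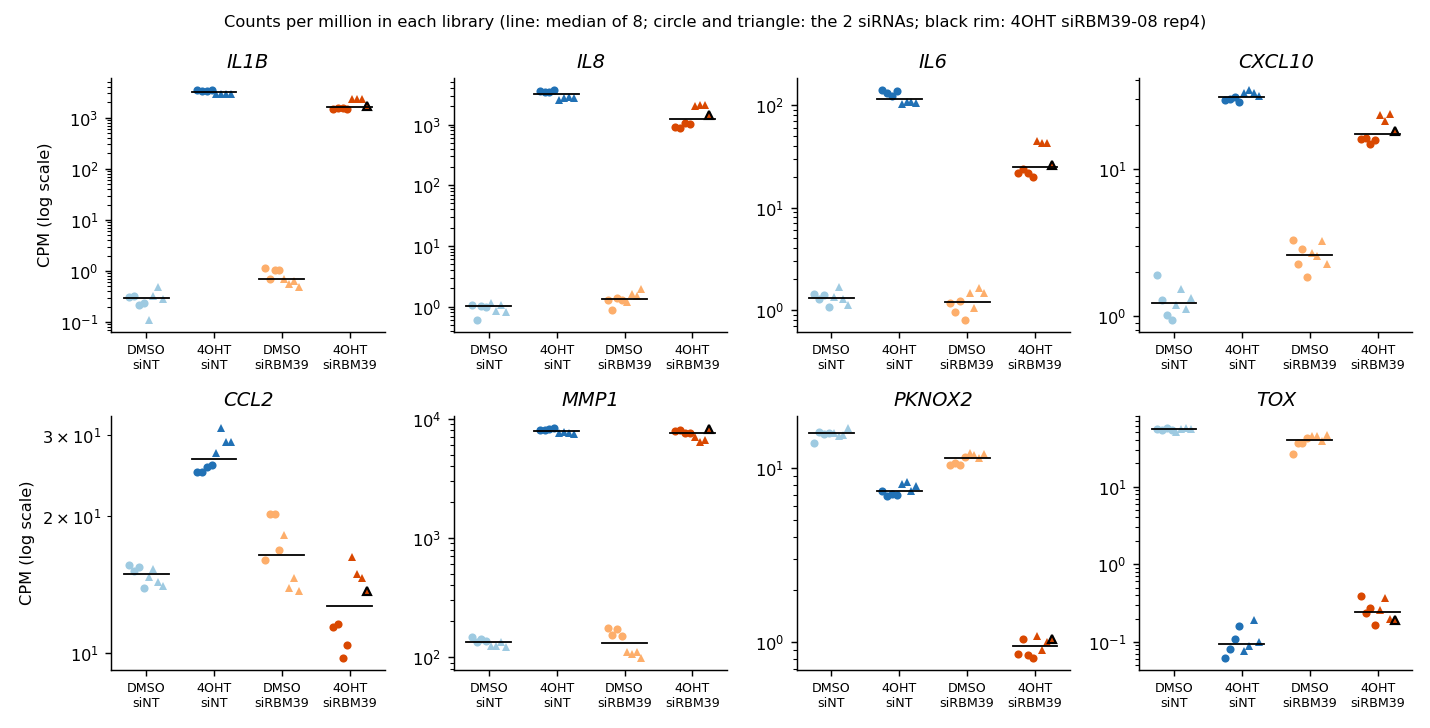
Level of 8 genes in each of 32 libraries, in CPM on a log axis, for DMSO and 4OHT with siNT and with siRBM39. Each point is a library, circle and triangle mark the 2 siRNAs of a group, the line is the median of 8, and the library with epithelial markers has a black rim; IL1B, IL8 and IL6 rise in both contrasts and stop lower with siRBM39, CCL2 rises only in siNT, and MMP1 reaches like levels in both.

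Of 9 chemokine genes tested, 7 rose and 2 fell, the latter CCL2 and CXCL12, with a median log2 fold change of 8.28 (8.55 in siNT) beside 0.03 over all genes. The difference in response, siRBM39 minus siNT, was called lower in 6 of them (66.7%), beside 6.87% of all genes tested. It was called higher in 1, CXCL12, which fell in both contrasts but less far with siRBM39. The count of lower calls was also 6 without the library that stood apart, 5 in the fit with siRBM39-06 alone and 4 with siRBM39-08 alone. CXCL2 was among them with a difference of -1.96 (adjusted p = 0.0168), but rested on 1 to 5 counts in each DMSO siRBM39 library and was not called with siRBM39-08 alone. Interleukins and the IL-1 pathway had 18 genes tested, of which 14 rose and 3 fell with a median of 1.91 (2.49 in siNT). The difference was called lower in 6 of them (33.3%). LIF, a cytokine of the IL-6 family, was among them: it rose from 87.9, 99.5 and 107 CPM to 181, 231 and 299 CPM, and in siNT from a median of 84.2 to 333 CPM. The member with a larger value was the receptor IL1R1, with a median of 132 CPM in both siRBM39 groups (log2 change -0.02, adjusted p = 0.826), while it fell by 0.60 on the log2 scale in siNT. That difference, 0.57, was not called without replicate 3. The 3 interleukin genes that fell were CSF1, IL6R and the adaptor MYD88.

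Start regions of 4 genes of these groups are shown because they hold 1 form of the letters that NF-kB (here GGGANTTCC, kappa B) or AP-1 (here TGANTCA) is known to bind. They run from 250 bases before to 50 bases after the transcription start, come from RefSeq on GRCh38.p14, and have the matching letters, found on either strand, in capitals.
CXCL8, chr4:73740319-73740618, plus strand: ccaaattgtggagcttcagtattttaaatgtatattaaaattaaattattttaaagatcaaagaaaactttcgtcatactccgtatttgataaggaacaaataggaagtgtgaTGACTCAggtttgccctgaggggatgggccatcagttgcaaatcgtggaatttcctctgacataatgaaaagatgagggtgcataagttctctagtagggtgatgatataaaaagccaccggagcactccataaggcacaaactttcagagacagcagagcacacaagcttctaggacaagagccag
CXCL10, chr4:76023448-76023747, minus strand: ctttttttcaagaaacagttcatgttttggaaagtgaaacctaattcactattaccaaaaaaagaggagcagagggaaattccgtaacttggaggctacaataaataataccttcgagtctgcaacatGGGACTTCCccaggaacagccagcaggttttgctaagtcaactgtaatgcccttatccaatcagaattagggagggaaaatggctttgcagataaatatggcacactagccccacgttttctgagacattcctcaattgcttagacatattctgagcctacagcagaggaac
BIRC3, chr11:102317234-102317533, plus strand: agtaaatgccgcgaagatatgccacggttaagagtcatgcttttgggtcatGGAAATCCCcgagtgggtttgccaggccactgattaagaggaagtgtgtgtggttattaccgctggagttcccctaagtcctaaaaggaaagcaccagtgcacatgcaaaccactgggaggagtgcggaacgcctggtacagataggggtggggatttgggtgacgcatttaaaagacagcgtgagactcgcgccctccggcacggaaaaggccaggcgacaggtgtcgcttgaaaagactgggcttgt
TNFAIP3, chr6:137867009-137867308, plus strand: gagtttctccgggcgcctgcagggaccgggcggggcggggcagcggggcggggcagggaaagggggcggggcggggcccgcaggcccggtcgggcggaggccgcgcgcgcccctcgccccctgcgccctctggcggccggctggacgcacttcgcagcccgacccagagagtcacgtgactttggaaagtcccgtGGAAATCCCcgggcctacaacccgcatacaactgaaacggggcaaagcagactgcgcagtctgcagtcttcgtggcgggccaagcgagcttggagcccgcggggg
The match in CXCL8 (the gene named IL8 in the count table) is TGACTCA, 137 bases before the start. Those in CXCL10, BIRC3 and TNFAIP3 lie 122, 199 and 55 bases before it. RefSeq start regions were matched for 7295 of the genes tested. The AP-1 letters were found in 4.29% of them, in 8.12% of the 517 matched genes that rose at least 2-fold and in 4.75% of the 674 that fell, beside 7.76% of all 27305 start regions of the table. The kappa B letters were found in 2.3% of the genes tested, 2.9% of those that rose and 1.19% of those that fell, beside 1.86% of all regions. Among the NF-kB genes below they were present in 3 of 15, and among the chemokines in 1 of 8. Only these exact letters were searched. Longer or varied forms, such as tggaatttcc in the CXCL8 region above, were not counted. A region without a match may therefore still hold a kappa B site. A match is a string of letters and not a measured site.

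NF-kB is held in the cytoplasm by inhibitors that it also induces. Of 18 genes for its subunits and inhibitors, 15 rose and 2 fell, with a median log2 fold change of 0.75 (0.90 in siNT). The fallers were BCL3 and IKBKG, whose groups overlapped, and the call of IKBKG was lost with siRBM39-08 alone and without replicate 1. BIRC3, which restrains cell death downstream of TNF receptors, rose from 1.48, 2.03 and 2.66 CPM to 7.44, 16.2 and 22.7 CPM, against 24.2, 31.5 and 35.4 CPM in 4OHT siNT. TNFAIP3, the enzyme A20 that turns the pathway off, rose from 8.3, 11.7 and 14 CPM to 30.3, 46.4 and 56.6 CPM, against 60.7, 65.4 and 70.2 CPM. Both 4OHT groups with siRBM39 lay below those with siNT without overlap. The response was smaller with siRBM39 by 1.07 for BIRC3 (adjusted p = 0.000768) and by 0.77 for TNFAIP3 (adjusted p = 2.45e-05, edgeR's quasi-likelihood test). In all, the difference was called lower in 6 of the 18 (33.3%) and higher in 0. Without the library that stood apart it was lower in 9, with siRBM39-06 alone in 10 and with siRBM39-08 alone in 4.

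Secreted proteases and their inhibitors changed with 4OHT in both contrasts. MMP1, interstitial collagenase (chromosome 11, 102660132 to 102668891, minus strand), rose from 98.1, 132 and 176 CPM to 6430, 7570 and 8290 CPM, a log2 fold change of 5.79 (SE 0.10), and in siNT by 5.89. The 4OHT groups overlapped and the difference of -0.10 (SE 0.12) had an adjusted p of 0.637, which does not show that the responses were equal. MMP3, stromelysin, rose from 6.9, 9.06 and 11.2 CPM to 2180, 2520 and 2730 CPM, and 4OHT siNT lay just above it at 2760 to 3060 CPM. SERPINB2, an inhibitor of plasminogen activators, rose from 2.3, 3.02 and 3.4 CPM to 247, 277 and 312 CPM, but reached 474 to 589 CPM in siNT, with a response smaller by 1.31 (adjusted p = 1.43e-09, edgeR's quasi-likelihood test). Of 25 proteases and inhibitors 17 rose and 7 fell, beside 39.1% and 36.4% of all genes tested. The difference in response was called higher in 4 (16%) and lower in 5 (20%), beside 7.28% and 6.87% of all genes tested. The largest fall among those with a called difference was that of TIMP3, an inhibitor of metalloproteinases, at 2.12 on the log2 scale against 2.83 in siNT, a difference not called with siRBM39-06 alone or without replicate 1, 2 or 3.

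Genes close to the RAS pathway itself answered 4OHT with RBM39 depleted. Among 26 genes of ERK feedback and output, 20 rose and 5 fell, with a median of 1.19 against 1.04 in siNT. DUSP6, a phosphatase that removes phosphate from ERK, rose from 56.9, 62.7 and 69.9 CPM to 329, 490 and 519 CPM, a log2 fold change of 2.91 beside 3.23 in siNT. EREG, a ligand of the EGF receptor, rose from 4.75, 5.95 and 7.1 CPM to 62.9, 109 and 150 CPM, and the phosphatase gene DUSP4 rose from a median of 9.53 to 128 CPM. Those that fell were EGR1, SPRY1, EPHA4, DUSP8 and DUSP10, the last 2 by less than 0.5 on the log2 scale. Calls in the difference went both ways, 3 lower (11.5%) and 2 higher (7.69%), beside 6.87% and 7.28% of all genes tested. The higher were PHLDA1 and EGR3. Without the library that stood apart the lower and higher calls were 5 and 4, with siRBM39-06 alone 8 and 5. Of 12 AP-1 and C/EBP factors, which bind DNA downstream of the pathway, 6 rose and 6 fell, beside 39.1% and 36.4% of all genes tested. The largest rises were those of MAFF and MAFK, with log2 fold changes of 1.52 and 1.45, and the largest falls those of CEBPD and CEBPG, by 1.12 and 1.07.

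Genes of ribosome assembly and of sugar breakdown rose together. Of 39 ribosome biogenesis genes, whose products process ribosomal RNA in the nucleolus, 33 rose and 1, GAR1, fell, with a median log2 fold change of 0.52 (0.77 in siNT). RRP12 rose from 23.8, 25.4 and 31.6 CPM to 58.8, 65 and 99.8 CPM. TSR1, a factor of the small subunit, was at 40.3, 41.9 and 43.6 CPM and rose to 47.5, 50.9 and 53.5 CPM, against a rise from 57.9 to 100 CPM by the medians in siNT. The difference was called lower in 14 of the 39 (35.9%) and higher in 0. TSR1 (-0.49, adjusted p = 5.33e-11, edgeR's quasi-likelihood test), CIRH1A (-0.56), WDR12 (-0.49) and UTP15 (-0.35) were the furthest apart. The count of lower calls was 22 without the library that stood apart, 21 with siRBM39-06 alone and 16 with siRBM39-08 alone. UTP15 was not called with siRBM39-06 alone. NPM1, a nucleolar chaperone, had an adjusted p of 0.0843. Of 23 glycolysis genes 21 rose and 1, the glucose carrier SLC2A1, fell. HK2, hexokinase 2, rose from 29.7, 36.6 and 50.5 CPM to 237, 365 and 400 CPM, and LDHA, lactate dehydrogenase, from a median of 334 to 1050 CPM. The difference was lower for 3 of the 23 (13%), beside 6.87% of all genes tested. They were HK2, ENO2 and PGK1, of which ENO2 was not called with siRBM39-08 alone. Without the library that stood apart 7 were lower, with siRBM39-06 alone 12 and with siRBM39-08 alone 4.

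Structural proteins of the ribosome responded otherwise. Of 68 cytosolic ribosomal protein genes 30 fell and 4 rose, beside 36.4% and 39.1% of all genes tested. Without the library that stood apart 56 fell and 1 rose. The difference was called in 0 of them by edgeR, but with siRBM39-08 alone it was higher in 22, and with siRBM39-06 alone higher in 1 and lower in 3. The median was -0.14 (-0.29 in siNT), and many of these genes have near-identical copies elsewhere in the genome between which reads may be split. RPS28, one of those that rose, was at 525 CPM in that library, while its 4OHT median was 181 CPM, and its log2 fold change of 0.34 went to 0.04 without it and was no longer called.

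Among the genes that fell most were 2 collagens and a secreted signal. HTR2B, a serotonin receptor, was at 7.59, 11.8 and 15.9 CPM in DMSO siRBM39 and had 2 counts over the whole of 4OHT siRBM39, a ratio of 2000 (554 to 16500, exact Poisson interval). WNT2, a secreted signal of lung mesenchyme, fell from 10.9, 13.6 and 16.1 CPM to 0, 0.0472 and 0.117 CPM. COL15A1, a basement-membrane collagen, fell from 94.5, 132 and 163 CPM to 1.36, 1.96 and 2.56 CPM, and COL14A1, which binds collagen fibrils, from a median of 72.2 to 1.2 CPM. No DMSO library overlapped a 4OHT library for any of these, which the choice of genes required. The remaining genes among the 15 that fell most were TOX, SLC7A14, ELOVL2, SCN7A, PODN, TMEM130, CXCL12, CORIN, TMEM119, ITGBL1 and LMOD1, with falls of at least 5.65 on the log2 scale. Of 13 fibroblast markers 12 fell, COL1A2 by 2.97 and DCN by 5.21 on the log2 scale, and 1, VIM, rose by 0.13 with overlapping groups, a call lost with siRBM39-08 alone and without replicate 2.

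Of 23 collagen genes 13 fell and 7 rose, beside 36.4% and 39.1% of all genes tested. Their median was -0.78 (-0.88 in siNT), and 5 rose without the library that stood apart. COL3A1, a fibrillar collagen, fell from 4580, 5020 and 5340 CPM to 564, 632 and 854 CPM. Against them COL10A1, a collagen known from cartilage, rose from 0.127, 0.433 and 0.877 CPM to 10.3, 27.6 and 32.3 CPM. The difference was called in 3 each way (13%), beside 7.28% of all genes tested for higher and 6.87% for lower. COL13A1 was the furthest from 0, at -1.18 (adjusted p = 1.12e-05, edgeR's quasi-likelihood test): it fell by 2.07 on the log2 scale, against 0.88 in siNT. Without the library that stood apart the difference was called in 6 each way, and with siRBM39-06 alone in 5 higher and 9 lower. Contractile and myofibroblast genes fell in 21 of 26, with a median of -0.75 (-0.87 in siNT). TAGLN, the actin-binding protein transgelin, fell from 323, 347 and 468 CPM to 41.7, 46.8 and 105 CPM, MYH10, a non-muscle myosin, from a median of 183 to 33 CPM, and CNN1, calponin, from 44.5 to 6.93 CPM. The 4 that rose were TAGLN2, TPM3, ACTN1 and TGFB1. CYR61, a target of the YAP pathway, fell by 1.90 on the log2 scale against 1.26 in siNT (adjusted p of the difference 4.84e-06, edgeR's quasi-likelihood test).

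Cell-cycle genes fell. Of 25 mitosis genes 19 fell, 18 of them at least 2-fold, and 3 rose, with a median of -1.48 (-1.77 in siNT). KIF20A, a kinesin of cytokinesis, fell from 7.27, 13 and 17.2 CPM to 1.14, 1.36 and 1.69 CPM. TOP2A, a topoisomerase of chromosome condensation, fell from 22.4, 42 and 49.4 CPM to 5.73, 7.42 and 8.6 CPM. CCNB2 and PLK1, a mitotic cyclin and kinase, fell by 2.22 and 2.11 on the log2 scale. The groups did not overlap for any of the 4. AURKA, MAD2L1 and ECT2 rose by 0.33, 0.24 and 0.81 with overlapping groups, and the call of MAD2L1 was lost without the library that stood apart. FOXM1, a transcription factor of these genes, was called in the difference, at 0.77 (adjusted p = 7.81e-06): it fell by 1.88 on the log2 scale in siRBM39 and 2.66 in siNT. It was the 1 mitosis gene called there, where 3 were called higher without the library that stood apart and 7 with siRBM39-06 alone.

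Start regions of 2 mitotic genes are shown because they hold, at a like distance from the start, the letters TTTGAA of the cell-cycle homology region (CHR), which the MuvB complexes are known to bind. They are RefSeq regions on GRCh38.p14 as above, with TTTGAA on either strand in capitals.
CCNB2, chr15:59104896-59105195, plus strand: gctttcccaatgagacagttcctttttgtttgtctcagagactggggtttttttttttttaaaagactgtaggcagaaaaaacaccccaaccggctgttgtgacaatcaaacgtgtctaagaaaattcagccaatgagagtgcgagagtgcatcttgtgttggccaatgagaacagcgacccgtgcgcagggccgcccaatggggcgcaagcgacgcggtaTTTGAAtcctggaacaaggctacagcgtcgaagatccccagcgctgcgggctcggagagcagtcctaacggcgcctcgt
PLK1, chr16:23678639-23678938, plus strand: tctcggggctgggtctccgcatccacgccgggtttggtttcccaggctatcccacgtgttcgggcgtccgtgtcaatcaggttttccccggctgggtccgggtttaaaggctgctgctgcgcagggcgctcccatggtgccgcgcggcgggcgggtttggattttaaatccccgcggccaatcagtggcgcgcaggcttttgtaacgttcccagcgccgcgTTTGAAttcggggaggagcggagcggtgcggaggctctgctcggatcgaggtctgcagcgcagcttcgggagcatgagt
In both the match begins 29 bases before the start. TTTGAA was found in 15 of the 19 mitosis genes with a start region (78.9%), beside 9.01% of the genes tested and 15.4% of all regions. Among the 15 of these mitosis genes that were called lower it was found in 11 (73.3%). Too few of the 19 remained for a comparison, and a link of the letters to the fall was not tested. Of DNA replication genes with a start region, 5 of 23 (21.7%) held TTTCCCGC and 3 (13%) held TTTGGCGC, letters of E2F, beside 2.56% and 0.96% of the genes tested. TTTGAA was found in 9.28% of the genes that rose at least 2-fold and in 10.8% of those that fell.

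Of 29 DNA replication genes 17 fell and 8 rose, with a median of -0.39 (-0.41 in siNT). TK1, thymidine kinase, fell from 14.8, 16.7 and 23.5 CPM to 1.23, 1.75 and 8.11 CPM, and MCM6, a subunit of the replicative helicase, from 22.5, 24.6 and 26.5 CPM to 5.42, 6.35 and 7.53 CPM. Of 7 CDK inhibitors and RB family genes 3 rose and 3 fell, shares near the 39.1% and 36.4% of all genes tested. CDKN2B, the inhibitor p15, rose from 40.4, 50.7 and 53.5 CPM to 186, 256 and 264 CPM, CDKN2A from a median of 37.9 to 61.6 CPM and CDKN1A from 1370 to 2150 CPM, while CDKN1C, CDKN1B and RBL2 fell. RB1 had an adjusted p of 0.357. Of 29 p53 targets 16 fell and 8 rose, with a median of -0.22 (-0.30 in siNT), and GDF15, a stress cytokine, rose from 88.6, 101 and 134 CPM to 578, 721 and 1110 CPM. Lamins and HMG proteins, which shape chromatin, fell in 12 of 18, LMNB1 by 2.11 and HMGB2 by 2.67 on the log2 scale, and rose in 3, HMGA1, HMGA2 and H2AFY.

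Among death regulators of the BCL2 family 8 of 14 rose and 4 fell, with a median of 0.54 (0.65 in siNT). Of all genes tested 39.1% rose and 36.4% fell. BCL2 itself, which keeps cells alive, fell from 12.3, 14.3 and 18.2 CPM to 0.982, 1.44 and 1.72 CPM, and the death-promoting BCL2L11, BBC3 and BOK fell as well. BCL2A1 and MCL1, both survival factors, rose, MCL1 from a median of 348 to 854 CPM, and so did BID and PMAIP1. Interferon-stimulated genes fell in 16 of 22, with a median of -0.68 (-0.65 in siNT) and 0 called in the difference by edgeR, although 8 were higher with siRBM39-06 alone and 3 lower with siRBM39-08 alone. IFIT1, an inhibitor of viral RNA translation, fell from 10.6, 14.7 and 18.2 CPM to 1.92, 2.37 and 3.22 CPM. The 2 that rose were IRF1 and ISG15, but ISG15 was at 123 CPM in the library that stood apart, and its log2 fold change of 0.64 was 0.01 without it.

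Metabolic and stress lists were mixed. Of 31 ATF4 and ER stress genes 16 fell and 9 rose, with a median of -0.42 (-0.10 in siNT), among them ASNS, asparagine synthetase, which fell from 61, 115 and 164 CPM to 21.2, 23.3 and 25 CPM, and PHGDH and PSAT1 of serine synthesis, which fell by 2.47 and 2.28 on the log2 scale. EDEM1, of protein quality control, rose by 1.41. Of 21 NRF2 antioxidant genes 9 fell and 6 rose, beside 36.4% and 39.1% of all genes tested. A higher value of the difference was called in 4 (19%), beside 7.28% of all genes tested. Among them GCLC, FTL and SQSTM1 each lost that call on leaving out at least 1 replicate number, and with siRBM39-06 alone 12 were higher. Cholesterol synthesis genes rose in 11 of 23 and fell in 3, or 5 without the library that stood apart. Lysosomal genes rose in 16 of 35 and fell in 12, shares near the 39.1% and 36.4% of all genes tested. The medians of the lists were 0.20 and 0.01. NPC1, which exports cholesterol from lysosomes, rose from 29.6, 32.4 and 36.4 CPM to 70.5, 119 and 142 CPM. IGF-binding protein genes rose in 4 of 6 and fell in 2, IGFBP7 from a median of 190 to 399 CPM, but IGFBP4 was not called without the library that stood apart, which held the highest 4OHT values of IGFBP2, IGFBP4 and IGFBP6.

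Genes of the splicing machinery in both lists tested changed by less than 2-fold or were not called. Of 29 genes for SR proteins and hnRNPs, which bind exons and introns and steer splice sites, 18 fell and 4 rose, none by 2-fold, with a median of -0.22 (-0.19 in siNT). PTBP2 fell from 23.3, 30.4 and 35.5 CPM to 11.9, 15.8 and 17.8 CPM, HNRNPA1 by 0.79 on the log2 scale and HNRNPH3 by 0.79. PTBP1 rose from 302, 329 and 344 CPM to 343, 395 and 438 CPM, with groups that met, and TRA2A, HNRNPL and HNRNPH2 rose by 0.44, 0.20 and 0.09. Of 22 U2 and RBM39-related factors 6 rose and 7 fell, beside 39.1% and 36.4% of all genes tested. SNRPA1, a protein of the U2 particle, rose from 20.3, 22.9 and 29.6 CPM to 41.2, 48.5 and 51.1 CPM, but less than in siNT, where it went from a median of 18.1 to 55.6 CPM (difference -0.64, adjusted p = 7.8e-08, edgeR's quasi-likelihood test). PUF60 rose by 0.50 and U2AF1 fell by 0.38 on the log2 scale, both with overlapping groups. Markers of other cell types were mostly too low to test. KRT8 for epithelium had an adjusted p of 0.181, but fell by 1.34 on the log2 scale without the library that stood apart (adjusted p = 7.14e-13, edgeR's quasi-likelihood test), TEK for endothelium rose by 0.39 and CD68, a lysosomal protein of macrophages that fibroblasts also make, rose by 1.27.

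The difference in response between siRBM39 and siNT was called higher in 727 genes (7.28%) and lower in 686 (6.87%). It was at least 2-fold in 13 and 30 of them. All 30 with a lower value except 5 had risen in siNT, and 21 of those 25 rose in siRBM39 as well; all 13 with a higher value had fallen in siNT, and 12 of these fell in siRBM39 too. The response was nearer to 0 in siRBM39 than in siNT for 74% of the 1413 genes, beside 61.4% of all genes tested. Of the 43 genes past 2-fold, 41 were called in the same direction with siRBM39-06 alone, 40 with siRBM39-08 alone and 43 without the library that stood apart. Of all 1413, 1194 were called in the same direction with siRBM39-06 alone, 982 with siRBM39-08 alone and 1380 without that library.

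PKNOX2, a homeodomain factor of the TALE class (chromosome 11, 125034583 to 125303285, plus strand), had the lowest difference. It was at 10.3, 11.4 and 12.2 CPM in DMSO siRBM39 and at 0.811, 0.951 and 1.08 CPM in 4OHT siRBM39, against 13.9, 15.8 and 16.9 CPM and 6.85, 7.37 and 8.25 CPM in siNT. With RBM39 depleted it fell 11.9-fold, and the 4OHT median was 12.9% of that in siNT, with no overlap. Its log2 fold change was -3.57 (SE 0.09) in siRBM39 and -1.06 (SE 0.08) in siNT, a difference of -2.51 (SE 0.12, adjusted p = 1.14e-21, edgeR's quasi-likelihood test). The 2 siRNAs gave the same size, -2.51 with siRBM39-06 and -2.52 with siRBM39-08.

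The highest differences belonged to genes that 4OHT lowered less far with RBM39 depleted. TOX, a chromatin factor known from T cells, fell from 26.1, 40.1 and 46.6 CPM to 0.167, 0.246 and 0.385 CPM in siRBM39. In siNT it fell from 50.9, 55.3 and 56.9 CPM to 0.0616, 0.0938 and 0.194 CPM (difference 1.68, SE 0.29, adjusted p = 3.06e-05, edgeR's quasi-likelihood test). Its 4OHT siRBM39 libraries held only 6 to 17 counts each, and its median CPM in 4OHT siNT was lower still. KIAA1199, which takes part in the breakdown of hyaluronan, fell from 43.5, 47.6 and 60.2 CPM to 16, 19.9 and 26.9 CPM, against 76.8, 91.8 and 105 CPM and 11.2, 12 and 13.5 CPM in siNT. It was thus below siNT in DMSO and above it in 4OHT, without overlap in either, and the difference was 1.66 (SE 0.18, adjusted p = 1.79e-09, edgeR's quasi-likelihood test). RUNX1T1, a transcriptional co-repressor, and NUPR1, a small stress-induced chromatin protein, began at levels that overlapped siNT and ended at medians of 3.63 against 1.38 CPM and 12.4 against 4.29 CPM. Their differences were 1.37 and 1.34. CXCL12, a chemokine of stromal cells, had a difference of 1.33 (adjusted p = 0.00208, edgeR's quasi-likelihood test) that was not called with siRBM39-06 alone, at 1.04. It rested on 4 to 18 counts in each 4OHT siRBM39 library.

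**Figure D3:**
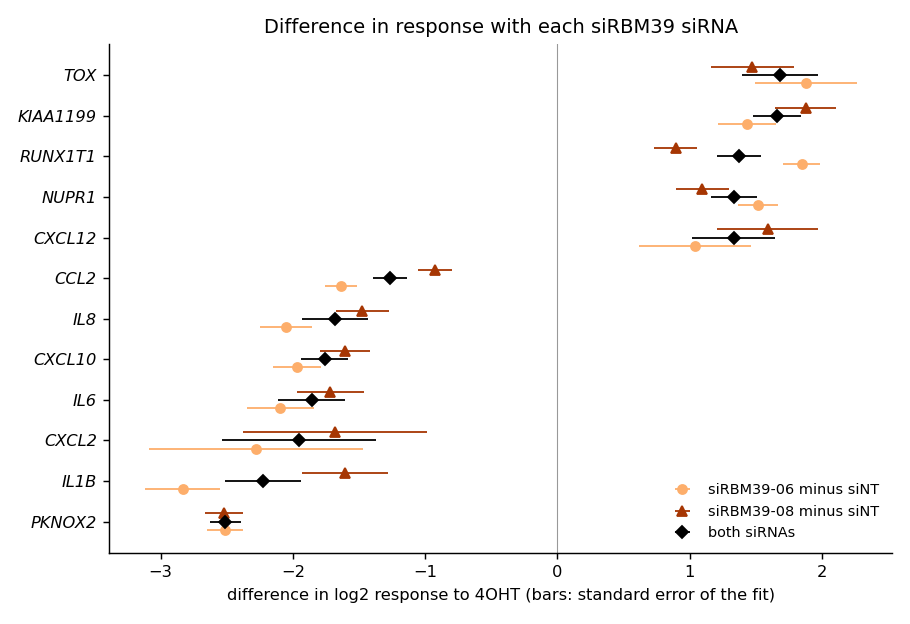
Difference in the log2 response to 4OHT, siRBM39 minus siNT, for the 5 genes with the highest and the 5 with the lowest called differences, and for CCL2 and IL8. Values are from the fit of both siRNAs and with each siRNA against RBM39 alone (bars: SE of the fit). The values of the 2 siRNAs lie on the same side of 0 for all 10 genes with the highest and lowest differences. They coincide for PKNOX2, at -2.51 and -2.52.

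The 2 siRNAs against RBM39 did not give identical responses. Their log2 fold changes correlated across genes with Pearson's r = 0.934, and the direct test of siRBM39-08 minus siRBM39-06 called 4131 genes (41.3%), 2301 higher and 1830 lower. Without the library that stood apart 2257 were called, 1073 higher and 1184 lower. IL8 reached 881 to 1060 CPM with siRBM39-06 and 1440 to 2080 CPM with siRBM39-08, IL6 20 to 23.9 and 25.7 to 44.9 CPM, and CXCL10 14.8 to 16.3 and 18.2 to 23.6 CPM, so each was lower with siRBM39-06, and both siRNAs stayed below 4OHT siNT. Among the siRBM39-08 libraries the one that stood apart was the lowest for these genes, as for IL1B, at 1710 CPM against 2290 to 2370 CPM in the other 3. PKNOX2 reached 0.811 to 1.05 and 0.899 to 1.08 CPM.

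Splicing was read as PSI, the percentage of transcripts of a gene that include an exon or keep an intron. Enough reads in all 48 libraries were found for 24757 cassette exons. The 7673 tested were those whose PSI also spanned at least 5 points over these libraries, so shares are of exons that varied. With RBM39 depleted, 34 exons (0.443%) were included more and 124 (1.62%) less with 4OHT, at an adjusted p under 0.05 in limma on logit PSI and a difference of at least 5 percentage points. In siNT the figures were 37 (0.482%) and 86 (1.12%). The lists shared 63 exons in the same direction, 39.9% of the siRBM39 list and 51.2% of the siNT list, and 151 of the 158 siRBM39 exons had a difference of the same sign in siNT. For 56 of the 158 (0.73% of the exons tested) the libraries did not overlap, 12 with more inclusion and 44 with less. The 158 exons lay in 135 genes. Their lengths were multiples of 3 in 54.4%, beside 42.3% of all exons tested, and had a median of 98 bases beside 105. Of the 156 in genes tested for expression, 12.8% were in genes changed at least 2-fold, beside 16.6% of all genes. Without the library that stood apart 131 of the 158 remained called in the same direction, and the reads behind a PSI value were as few as 10.

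The 2 exons of TPM1 shown first are neighbours of equal length in the gene for tropomyosin, an actin-binding protein, and exclude each other in the mature transcript. RAI14 encodes an actin-associated ankyrin repeat protein, H2AFY the histone variant macroH2A, GOPC a Golgi protein with a PDZ domain and TNFRSF1A the main receptor for TNF. Exons are in capitals with 20 bases of intron on each side in lower case, read from GRCh37 on the strand of the gene after a match of exon lengths and neighbours to the annotation, which lists all of them as coding.
TPM1, first exon, chr15:63353397-63353472, plus strand: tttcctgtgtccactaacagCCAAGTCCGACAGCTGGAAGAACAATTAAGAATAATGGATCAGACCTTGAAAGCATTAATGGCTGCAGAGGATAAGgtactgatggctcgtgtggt
TPM1, second exon, chr15:63353912-63353987, plus strand: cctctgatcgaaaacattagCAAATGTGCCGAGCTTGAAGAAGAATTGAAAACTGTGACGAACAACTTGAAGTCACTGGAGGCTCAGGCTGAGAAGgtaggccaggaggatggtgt
RAI14 exon, chr5:34813679-34813765, plus strand: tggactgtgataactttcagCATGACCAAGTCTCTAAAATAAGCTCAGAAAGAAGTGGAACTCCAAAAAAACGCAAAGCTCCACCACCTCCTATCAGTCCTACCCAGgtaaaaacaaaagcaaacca
H2AFY exon, chr5:134688636-134688735, minus strand: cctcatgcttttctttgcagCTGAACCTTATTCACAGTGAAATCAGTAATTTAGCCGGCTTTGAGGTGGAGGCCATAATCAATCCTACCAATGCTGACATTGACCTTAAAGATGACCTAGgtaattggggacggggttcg
GOPC exon, chr6:117898611-117898634, minus strand: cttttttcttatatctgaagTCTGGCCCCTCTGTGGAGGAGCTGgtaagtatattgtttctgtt
TNFRSF1A exon, chr12:6440019-6440092, minus strand: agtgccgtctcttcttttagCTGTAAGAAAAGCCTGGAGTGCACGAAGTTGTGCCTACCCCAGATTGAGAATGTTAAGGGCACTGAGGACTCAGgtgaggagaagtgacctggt
The 2 TPM1 exons are 76 bases long and identical at 43 positions (56.6%). The others have 87, 100, 24 and 74 bases in the order printed.

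The first TPM1 exon was included at 18.2, 20.9 and 26.4% in DMSO siRBM39 and at 54.9, 57.6 and 65.6% in 4OHT siRBM39. The second went the other way, from 77.4, 80.9 and 86.2% to 39.7, 42.9 and 55.8%. The differences in mean PSI were 37.19 and -36.89 percentage points (adjusted p = 2.96e-12 and 1.53e-14, limma), so 1 exon took the place of the other. No library overlapped the other group, which the choice of exons required. In siNT the exchange went further, from 29.7, 35.8 and 43% to 77.5, 81.7 and 86.7% for the first exon, but the differences between the contrasts, -8.38 and 10.49 points, had adjusted p = 0.974 and 0.712. The count of TPM1 fell by 0.37 on the log2 scale in siRBM39, with overlapping groups, and had a log2 change of 0.14 in siNT (adjusted p = 0.0904).

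The RAI14 exon was included at 21.9, 27.9 and 38.6% without and at 61.4, 71.6 and 81.4% with 4OHT, a difference of 42.06 points (adjusted p = 2.09e-12, limma), and in siNT rose from a median of 25.5 to 53%. The H2AFY exon rose from 41, 44 and 54.9% to 59.3, 71.2 and 77.9%, a difference of 24.64 points, while the neighbouring exon of 87 bases fell from 37, 44.6 and 52% to 15.8, 19.9 and 34.9%, a difference of -22.75 points. H2AFY exons of this pair are known to make different forms of the macrodomain. In COL5A1, which encodes a fibrillar collagen, an exon of 69 bases rose from 37.6, 46.1 and 53.3% to 56.3, 64.2 and 72%, and its neighbour, also of 69 bases, fell from 36.8, 48 and 57.4% to 24.8, 27 and 40.5%. Both neighbours were looked up after the values of the first exon were seen. In these 2 genes the levels with siNT differed before 4OHT, at medians of 22.6% for the H2AFY exon and 20.4% for the COL5A1 exon, and rose to 46.2 and 31.8%.

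**Figure D4:**
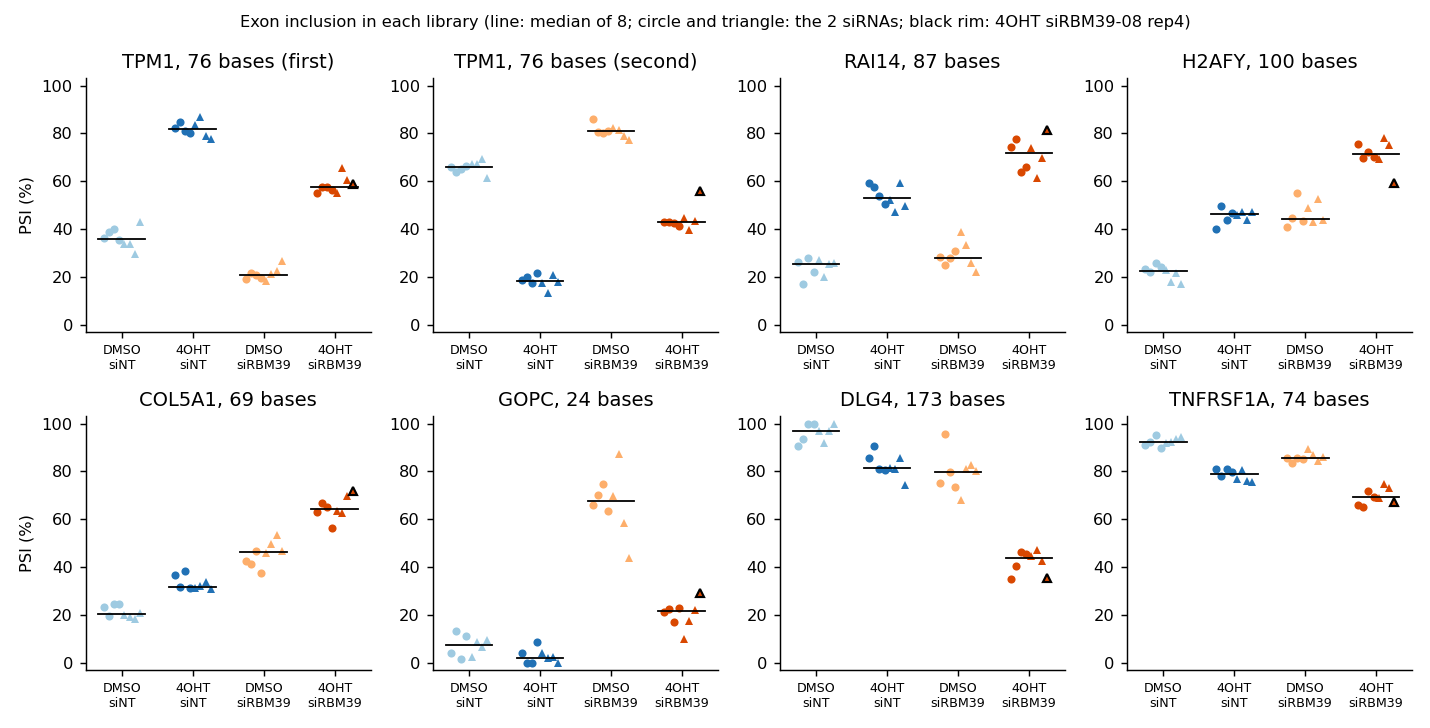
PSI in percent in each library for the exons printed and further exons named in the text, for DMSO and 4OHT with siNT and with siRBM39 (point: library; line: median of 8; circle and triangle: the 2 siRNAs; black rim: the library with epithelial markers). The 2 TPM1 exons change in opposite directions in both contrasts, and the GOPC exon falls from a median of 67.7 to 21.6% with siRBM39 where siNT is already low.

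GOPC showed the largest loss of inclusion among called exons whose groups did not overlap. Its exon of 24 bases was included at 43.6, 67.7 and 87.2% in DMSO siRBM39 and at 9.93, 21.6 and 29.2% in 4OHT siRBM39, a difference of -46.39 points (adjusted p = 7.28e-07, limma). In siNT it was at 1.32, 7.5 and 13.4% and then at 0, 2.08 and 8.7%. The difference between the contrasts, -41.89 points, had an adjusted p of 0.712 on the logit scale that the test used. The DLG4 exon of 173 bases, in the gene for a synaptic scaffold, fell from 68.2, 79.8 and 95.7% to 35, 43.7 and 47%, and in siNT from a median of 96.8 to 81.3%. With siRBM39-08 alone it was not called (adjusted p = 0.0747, limma). The TNFRSF1A exon fell from 83.7, 85.7 and 89.4% to 64.9, 69.2 and 74.7%, a difference of -16.39 points (adjusted p = 3.79e-08), beside -13.93 points in siNT. Further falls without overlap were those of 2 exons of PSPH, of serine synthesis (-32.69 and -24.15 points), and of exons of TBC1D23 (-31.04), SVIL (-26.36) and ECHDC1 (-24.55). TBC1D23 was not called with siRBM39-06 alone (adjusted p = 0.076, limma).

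Other exons with more inclusion were those of TSC22D1, by 25.9 points, RP11-65F13.2, by 16.22, IL7R, by 12.85, and DHX38, by 12.76. The calls of IL7R and DHX38 were lost without the library that stood apart, at adjusted p = 0.0896 and 0.133, and with either siRNA alone. RP11-65F13.2 was not called with siRBM39-06 alone (adjusted p = 0.259, limma). Among genes listed for exons known to vary between cell states, a variable exon of CD44, a receptor for hyaluronan, rose from 3.96, 6.02 and 8.87% to 9.34, 12.7 and 16.4%. A pair of exons of ACTN1, alpha-actinin, changed by 7.62 and -8.67 points, each called with siRBM39-06 alone and not with siRBM39-08 alone. Exons of PLOD2, a collagen lysyl hydroxylase, fell by 7.8 and 6.41 points, and that of CLSTN1 by 7.38. The groups of the second PLOD2 exon and of CLSTN1 overlapped, and the former was called with neither siRNA alone and the latter not with siRBM39-06 alone (adjusted p = 0.243, limma). Of the genes that hold these events of interest, 15 of 38 tested rose in count and 16 fell, beside 39.1% and 36.4% of all genes tested. The largest rise was that of NUMB, at 1.48 on the log2 scale.

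Retained introns changed seldom. Of 5248 tested, 8 (0.152%) were kept more and 6 (0.114%) less with 4OHT, and 3 did so with libraries that did not overlap. The intron of JTB, of a transmembrane protein of cell division, was kept at 3.22, 4.97 and 8.24% in DMSO siRBM39 and at 11.7, 16.5 and 29% in 4OHT siRBM39, a difference of 12.78 points (adjusted p = 0.000121, limma) that was not called with siRBM39-06 alone (adjusted p = 0.0807). Those of FKBP10, a chaperone of collagen, and AGRN, a matrix proteoglycan, rose by 12.42 and 10.67 points. Mean PSI over the exons tested was lower with 4OHT by 0.379 points (exact permutation over libraries, two-sided, p = 0.000155). That p is the smallest that 12870 splits of 8 against 8 can give. In siNT the mean was lower by 0.192 points at the same p. The median over exons differed by -0.136 points (exact permutation p = 0.467), so the call rests on the mean. Mean PSI over introns was lower by 0.117 points (exact permutation p = 0.127).

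A splicing response that differed between siRBM39 and siNT was called higher in 1 exon (0.013%) and lower in 2 (0.0261%) by limma, with 370 of the 7673 exons at an unadjusted p under 0.05. The first was in OBFC2A, a protein that binds single-stranded DNA. It was included in siNT at 8.99, 12.2 and 18.3% in DMSO and 0.31, 0.69 and 1.41% in 4OHT, but in siRBM39 at 0 to 0.58% in DMSO and at 0 in 4OHT, so there was little inclusion left to lose. The others were an exon of C8orf59 (-20.34 points) and 1 of CPSF1 (-5.15 points), and without the library that stood apart 1 exon remained called. Among introns 0 were called in this difference, with 232 at an unadjusted p under 0.05 in limma.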

How the data were processed

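RNA was measured in 48 libraries by mRNA capture and sequencing. Reads were aligned by the authors in vast-tools (version 2) against VAST-DB, whose build they give as hg19, and the authors deposited a raw count per gene, without normalisation, beside cRPKM, an RPKM corrected for mappability, and both a CPM table with TMM scaling and cRPKM were left unused here. The authors also deposited PSI, a percent for each splicing event in each library, with the reads and a coverage score behind it and, for introns, a balance p-value. The submitters' processing notes also name edgeR and limma. Groups were taken from sample titles: for 4OHT siNT2 the title and a second label disagree, and the methods state 3 replicates where titles give 4.

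Counts were tested with edgeR 4.0.16 in R 4.3.3 (glmQLFit and glmQLFTest) after TMM, over the 9991 genes whose counts summed to 10000 or more, with a mean for each of 6 groups over all 48 libraries, and the threshold was a Benjamini-Hochberg adjusted p of 0.05. The edgeR step was tested on simulated data. Events were kept where coverage scored VLOW or better in every library and PSI spanned 5 or more, with introns also held to a balance p of 0.05 or more. PSI was squeezed as 0.01 + 0.98 times its fraction and tested with limma 3.58.1 on the logit scale. Means of PSI were compared by two-sided exact permutation tests. Named genes were RBM39, the 15 with the largest rise and the 15 with the largest fall among called genes without overlap, the 5 highest and the 5 lowest differences in response, and up to 4 members with the largest change in each gene list (all where 5 or fewer were called in a direction). Some genes and 1 exon sequence that these rules name are not reported here. Exons were named as the 8 each way, and introns as the 3 each way, that changed most without overlap, with called exons of listed genes. The members and lists were chosen with earlier results of these data known. Alternatives were limma-voom, DESeq2 1.42.0, other filters, each siRNA alone, a replicate block and leaving out each replicate. Event coordinates in the file lie in GRCh38, so exons were matched to GRCh37 by lengths. The 24 pairs of replicate libraries with siRBM39 differed by 3.2 to 583 times sampling noise (chi-square per degree of freedom), so none was a repeated library. Intervals cover counting error only. Strandedness of the counting is not given in the sources used here, so reads of overlapping antisense genes cannot be told apart. Replicate numbers were not used to pair libraries in the main tests, and the closing section gives results with a replicate block.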

Additional observations from a re-analysis of the deposited data

Results flagged for a closer look

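Among 118 groups of 8 values of named genes and exons, 14 held a library further from the rest than Dixon's 95% limit, where chance gives about 1 in 20. Most belonged to the fourth 4OHT siRBM39-08 library, the one with epithelial markers. Its values there were 135 CPM for CSF3, 1000 CPM for CXCL5, 47.7 CPM for PI3 and 34.3 CPM for CST4, and PSI values of 59.3% for the H2AFY exon, 33.9% for RP11-65F13.2, 58.1% for IL7R, 55.8% for the second TPM1 exon and 26.8% for SVIL. In 4OHT siRBM39-08 replicate 2, HTR2B was at 0.0529 CPM and CXCL12 at 0.476 CPM. The other 3 were CST4 at 0.123 CPM in DMSO siRBM39-06 replicate 1, ECHDC1 at 62.6% in 4OHT siRBM39-08 replicate 1 and the PSPH exon of 146 bases at 20.4% in 4OHT siRBM39-06 replicate 2.

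Differences between groups under the same contrast, each by the test of the difference itself in edgeR's quasi-likelihood test, were called in 1413 genes between siRBM39 and siNT and in 4131 genes between the 2 siRNAs against RBM39. The 5 lowest and the 5 highest of the former were IL1B (-2.23), CXCL2 (-1.96), IL6 (-1.86), CXCL10 (-1.76), PKNOX2 (-2.51), TOX (1.68), KIAA1199 (1.66), RUNX1T1 (1.37), NUPR1 (1.34) and CXCL12 (1.33), as differences of log2 fold changes. By limma on logit PSI the exons were those of OBFC2A (12.1 points), CPSF1 (-5.15 points) and C8orf59 (-20.34 points).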

How the results depend on the processing

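Genes called in siRBM39 numbered 6448 to 8024 over the alternatives with the same genes and threshold (limma-voom 7559, DESeq2 7601), 11114 of 17872 with at least 1 count in total and 1656 at 2-fold. The replicate block gave 7638 genes, 1855 in the difference from siNT, 129 exons, 12 introns, 1 exon in the difference and the same mean PSI over exons, -0.379 (exact p = 0.00781). Same-numbered libraries correlated at -0.69 to 0.49. A few such pairs were closer than any pair of other numbers and most were not, so these values cannot decide whether the numbers pair libraries. The 1413 genes of the difference from siNT became 2777 with 1 mean per siRNA, 3706 with siRBM39-06 alone, 43 at 2-fold and 657 to 2499 on leaving out libraries, lowest without replicate 2 and highest without 4OHT siRBM39-08 replicate 4, and the share of higher calls was 51.5%, or 40.3% with only the groups compared and 30.2% at 2-fold. The difference between siRNAs ran from 1782 to 3730 genes on leaving out libraries, 55.7% higher, or 47.5% without that library. The 158 exons became 74 with siRBM39-06 alone, 60 with siRBM39-08 alone, 105 to 145 on leaving out libraries, 256 with no minimum difference and 80 at 10 points. The 14 introns became 8 with no minimum PSI range, 7 with only the groups compared, 4 and 6 with siRBM39-06 and siRBM39-08 alone, 5 to 13 on leaving out libraries, 118 with no balance filter, 31 with no minimum difference and 6 at 10 points. The 3 exons of the difference were 6 with siRBM39-06 alone and 1 to 3 on leaving out libraries. The median over exons in place of the mean PSI was -0.136 (exact permutation p = 0.467). Of 217 named gene results 196 kept their call in all alternatives, as did 46 of 95 differences in response and 15 of 28 events. Those that reversed were IGFBP4 (-0.053 with siRBM39-06 alone), ISG15 (-0.12 with siRBM39-06 alone, -0.186 to 1.01 on leaving out libraries) and RPS28 (-0.105 with siRBM39-06 alone, -0.036 to 0.522 on leaving out libraries), lowest without replicate 4. Their 4OHT values are highest in the library that stood apart, and the cause was not tested. The 10 points threshold for exons siNT and siRBM39 was chosen after seeing the data. Depth limits events with as few as 10 reads.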
